A study of Mus musculus with 36 samples.

Results

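The phagocyte NADPH oxidase was followed through 5 of its subunit genes, Cybb, Cyba, Ncf1, Ncf4 and Rac2, during B cell to macrophage transdifferentiation (BMT). The genes were picked by name, with earlier results of these data known, and all 5 of 5 are present in the count tables and in the log2 tables, out of 40354 genes in the counts and 19067 in the log2 values. Primary B cells from the bone marrow of C57BL/6J mice were infected with a retrovirus that carries human CD4 as a marker and C/EBPα fused to the estrogen receptor, in its wild-type (WT) form or with arginine 35 replaced by alanine (R35A) or by lysine (R35K). Estradiol (E2) lets the fusion protein act, and RNA was taken before induction (0 hr post induction, hpi) and 1, 3, 6, 18 or 120 hr into it. With 3 constructs at 6 times there are 18 groups, each of 2 libraries, 36 in all. All groups, the 0 hpi controls included, carried a construct, had been sorted for human CD4 and were cultured on inactivated mouse embryonic fibroblast feeders with IL-7, and the feeders were removed before RNA extraction by letting them adhere to plastic. During induction the medium held E2 and, beside IL-7, also IL-3, FLT-3, mCSF-1 and SCF, and renewals of the medium were without IL-7, so that the change from 0 hpi may hold effects of the medium as well. The labels call the cells B-cells up to 18 hpi and Macrophages at 120 hpi. The age of the mice is not given in the sources used here. The replicates are called biological in the study's methods, which do not tie them to separate mice, and p-values therefore measure the spread between these libraries.

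The phagocyte NADPH oxidase moves electrons from NADPH across a membrane to oxygen and so makes superoxide, which phagocytes use against ingested microbes. Its catalytic core sits in the membrane as a pair, the flavocytochrome gp91phox (also NOX2), made by Cybb, and its partner p22phox, made by Cyba. In resting cells the organizer p47phox (Ncf1) and p40phox (Ncf4) wait in the cytosol. On stimulation they join the core together with a Rac GTPase such as Rac2. Loss of Cybb, Cyba, Ncf1 or Ncf4 causes forms of chronic granulomatous disease. Rac2 also serves in actin remodelling and in signalling of lymphocytes, and B cells hold some oxidase subunits too.

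On mm10, Cybb (ENSMUSG00000015340.10) lies at chrX:9435252-9487771, Cyba (ENSMUSG00000006519.11) at chr8:122424776-122432930 and Ncf1 (ENSMUSG00000015950.13) at chr5:134220053-134229625, all on the minus strand. Ncf4 (ENSMUSG00000071715.12) lies at chr15:78244801-78262580 on the plus strand and Rac2 (ENSMUSG00000033220.7) at chr15:78559167-78572783 on the minus strand. The annotation places Gtf2ird2 over Ncf1 on the opposite strand, with exons inside Ncf1. The libraries were made with a stranded kit, but the strand setting of the counts is not given in the sources used here, so reads of the 2 genes may not be fully separated. Gtf2ird2 stood at 8.43 and 8.76 CPM (counts scaled to the size of the library) at 0 hpi, 8.21 and 8.25 CPM at 1 hpi and 42.7 and 40.2 CPM at 120 hpi in WT cells.

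The sequence at the start of each of the 5 genes was sought, and is shown for Cybb, Cyba and Ncf1. RefSeq (GRCm38.p6) promoter entries were matched for 3 of the 5 genes, and none were matched for Ncf4 and Rac2. Each line holds the 250 bases before the transcript start and the 20 after it, 5′ to 3′ on the strand of the gene, and capitals mark the core of the PU.1 motif. PU.1, the product of Spi1, is an ETS factor of macrophages and B cells. The start used for Cybb lies inside the longer gene model given above.
Cybb, chrX:9469305-9469574, minus strand: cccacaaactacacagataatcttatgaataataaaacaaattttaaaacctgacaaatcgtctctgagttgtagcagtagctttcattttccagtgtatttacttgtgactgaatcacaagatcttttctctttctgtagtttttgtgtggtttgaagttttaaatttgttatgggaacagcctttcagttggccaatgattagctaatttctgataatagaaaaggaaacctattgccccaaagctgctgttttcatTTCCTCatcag
Cyba, chr8:122432921-122433190, minus strand: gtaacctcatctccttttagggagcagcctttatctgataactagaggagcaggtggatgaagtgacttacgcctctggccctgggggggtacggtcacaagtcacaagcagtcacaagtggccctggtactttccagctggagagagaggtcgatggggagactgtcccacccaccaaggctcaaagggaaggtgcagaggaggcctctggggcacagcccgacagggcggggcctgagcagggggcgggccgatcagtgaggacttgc
Ncf1, chr5:134229606-134229875, minus strand: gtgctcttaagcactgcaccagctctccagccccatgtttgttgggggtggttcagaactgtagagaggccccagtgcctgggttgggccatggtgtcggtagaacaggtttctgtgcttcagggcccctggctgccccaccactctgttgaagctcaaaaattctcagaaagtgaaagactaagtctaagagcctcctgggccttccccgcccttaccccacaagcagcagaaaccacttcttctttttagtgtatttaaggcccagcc
The windows searched run 50 bases past the start, 300 bases in all, on both strands, for the PU.1 core GAGGAA, which reads TTCCTC on the other strand, and the C/EBP core TTNNGNAA, which reads TTNCNNAA there. The PU.1 core was found 1 time, in Cybb, at bases 10 to 15 of the transcript, where the gene's strand reads TTCCTC. No other match was found in the 3 windows. Only these exact cores were searched, so PU.1 or C/EBP sites with other letters would have been missed and are not marked. Of 32851 mouse promoters of this length, 28.28% hold the PU.1 core and 40.68% the C/EBP core, so that a match or its absence in a single window is common.

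Total counts lay between 13044456 and 23131776 per library, and the 5 genes had between 73 and 36836 counts in a library, which puts none of them near the limit of detection. B lineage markers (10 genes, among them Pax5 and Ebf1) summed to 4071 to 4135 CPM at 0 hpi, 1839 to 1847 after 1 hr and 133 to 138 after 120 hr in WT cells. Macrophage markers (10 genes, among them Csf1r, Cd14 and Adgre1) summed to 73.0 to 74.9 CPM at 0 hpi in WT cells, and at 120 hpi to 21196 to 21423 CPM in WT, 30122 to 32991 in R35A and 28431 to 28844 in R35K cells, so the labels of the end points hold. Granulocyte markers (10 genes) summed to 27.1 to 30.2 CPM at 0 hpi and 2815 to 2885 at 120 hpi in WT cells, and to between 2291 and 2885 CPM at 120 hpi over the 3 constructs. Of the 9 tested, 4 were called higher at 120 hpi in WT cells (Mmp8, Csf3r, Prtn3 and Cxcr2) and 5 lower (Elane, Ltf, Camp, Ngp and Mpo). Ly6g and Elane, which define mature and immature granulocytes, had 3 or fewer counts in each library at 120 hpi, and the part of these markers in the results was not tested. Markers of T and NK cells (8 genes) summed to between 1.27 and 10.1 CPM over all groups, with Cd3e and Ncr1, which define T and NK cells, at 3 or fewer counts in each library. Fibroblast markers without Fn1, which macrophages also make (9 of 10 genes), summed to 1124 to 1149.9 CPM at 0 hpi, 2326 to 2331 after 1 hr, 2855 to 2917 after 18 hr and 142 to 164 after 120 hr in WT cells. In R35A cells the same sums were 1179 to 1222, 2622 to 2635, 2266 to 2287 and 498 to 507 CPM, and in R35K cells 1135 to 1186, 2148 to 2215, 1681 to 1694 and 372 to 437 CPM. The summed level of these markers thus moved with time and differed between constructs at 1, 18 and 120 hpi, and its part in the results below was not tested. In bulk libraries, more cells of a type and more RNA of a gene per cell cannot be told apart.

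Before induction no difference between the constructs in the 5 genes passed the test. Levels are given as CPM for replicates 1 and 2, scaled with the trimmed mean of M-values (TMM), and a gene was called where edgeR's quasi-likelihood test gave at least a 1.5-fold change in either direction with p no higher than 0.05 after Benjamini-Hochberg adjustment over all genes tested. At 0 hpi 0 of the 5 genes was called between R35A and WT, with 0% of all genes called (261 genes at an unadjusted p under 0.05 and the same fold), and 0 between R35K and WT, with 0% of all genes called (220 at an unadjusted p). The intervals of the log2 differences at 0 hpi between R35A and WT were -0.46 to 0.06 for Ncf1, the gene with the fewest counts, and -0.19 to -0.03 for Rac2, the gene with the most at that time. The R35K libraries come in tables of their own, so in each comparison of R35K with another construct, the construct and whatever else sets these libraries apart cannot be told apart.

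After induction, 4 of the 5 genes ended far above their starting level in all 3 constructs, and the mutants reached an intermediate level within the first hour that WT cells did not reach by 18 hpi. Cybb, Cyba and Ncf1 rose in each construct at each time after 0 hpi. Ncf4 rose in both mutants from 1 hpi on but in WT cells only at 120 hpi. Rac2, already high in the B cells, fell in each construct from 1 to 18 hpi and came back by 120 hpi. In WT cells 4 of the 5 genes were called at each of the 5 times, against 19.9%, 23.5%, 29.8%, 47.1% and 63.3% of all genes in the order of the times. In R35A cells 5, 5, 5, 5 and 4 genes were called at these times, against 37.3%, 36.8%, 37.7%, 42.6% and 63.1% of all genes. R35K cells gave the same numbers of calls, 5, 5, 5, 5 and 4, against 32.9%, 32.7%, 34.1%, 39% and 63.8% of all genes. At 120 hpi most genes tested were called, so the number of calls there says little about the oxidase genes, and the size of their changes is what sets them apart from the median of all genes, which was −0.36 in WT, −0.31 in R35A and −0.28 in R35K cells on the log2 scale. With DESeq2's size factors in place of TMM these 3 medians moved up by 0.158, 0.129 and 0.136, and all changes at 120 hpi with them.

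**Figure D1:**
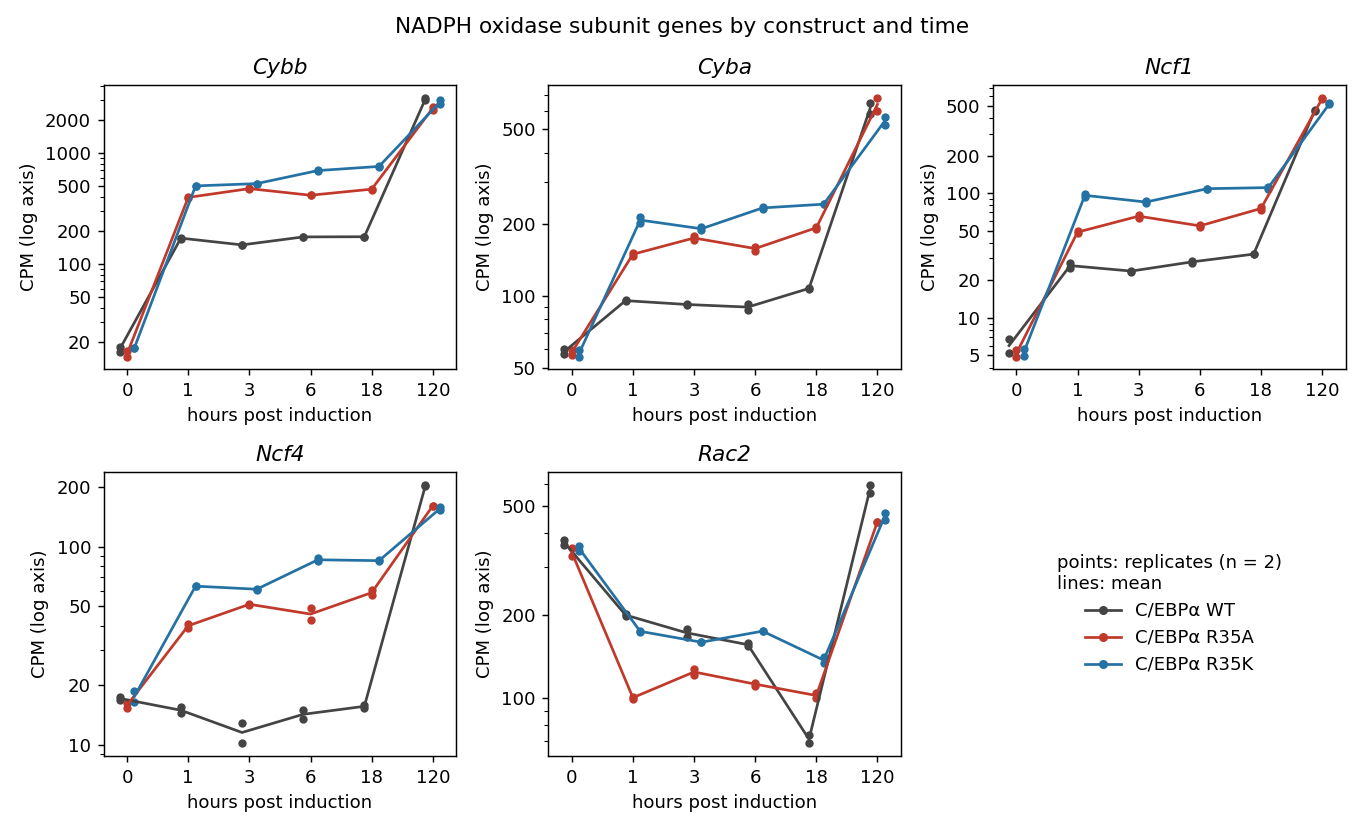
Levels of the 5 oxidase subunit genes in CPM on a log axis against hours post induction, for C/EBPα WT, R35A and R35K. Points are the 2 replicates of each group and lines join their means. From 1 to 18 hpi the mutants lie above WT cells for Cybb, Cyba, Ncf1 and Ncf4, and at 120 hpi each mutant lies within 1.5-fold of WT.

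Cybb, the catalytic subunit, made the largest change of the 5. In WT cells it stood at 17.9 and 16.2 CPM at 0 hpi, 169.8 and 172 after 1 hr, 148 and 149.6 after 3 hr, 175 and 176 after 6 hr, 176 and 176 after 18 hr and 3030.3 and 3149 after 120 hr. The level rose 10.0-fold in the first hour, lay between 148 and 176 CPM until 18 hpi and rose again to 181-fold the starting level. R35A cells went from 16.3 and 14.6 CPM at 0 hpi to 404 and 393 after 1 hr, 484 and 473 after 3 hr, 416 and 418 after 6 hr, 478 and 468 after 18 hr and 2467 and 2625 after 120 hr. R35K cells went from 17.5 and 17.6 CPM to 502 and 509.9, 529.6 and 532, 686 and 705, 753 and 764 and 2789 and 2993 at the same times. From 1 to 18 hpi each mutant library lay above each WT library of its time, and at 120 hpi the order was the other way, with both WT libraries above the mutant ones. The log2 change from 0 to 1 hpi was 3.35 ± 0.05 (± SE, n = 2 against 2) in WT, 4.67 ± 0.05 in R35A and 4.80 ± 0.05 in R35K cells, with adjusted p from edgeR's quasi-likelihood test of 5.3e-45, 6.6e-53 and 4.7e-39. The change in R35A cells exceeded that in WT cells by 1.32 ± 0.08 at 1 hpi and 1.56 ± 0.08 at 18 hpi on the log2 scale (adjusted p of 1.0e-19 and 5.8e-22). At 120 hpi the 2 changes differed by -0.12 ± 0.08 with an interval of -0.28 to 0.03 (adjusted p of 0.35).

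Cyba, the membrane partner that gp91phox needs to be stable, moved in the same steps with smaller sizes. WT cells held 57.2 and 59.8 CPM at 0 hpi, 96.2 and 94.9 after 1 hr, 92.5 and 91.7 after 3 hr, 87.2 and 92.4 after 6 hr, 108 and 107 after 18 hr and 647 and 580.3 after 120 hr. In R35A cells the values were 56.6 and 59.3, 152 and 147, 172 and 178, 155 and 161, 192 and 195 and 678 and 596 CPM, and in R35K cells 55.7 and 59.1, 202 and 215, 189 and 194, 237 and 231, 243 and 243 and 565 and 520.3 CPM. The constructs did not overlap from 1 to 18 hpi, with WT lowest and R35K highest at each of these times, while WT and R35A overlapped at 120 hpi. The WT change was 0.73 ± 0.05 at 1 hpi on the log2 scale and only 0.60 ± 0.05 at 6 hpi, just past the 1.5-fold limit, and the latter call was lost without WT 0 hpi replicate 1 (0.58) or WT 6 hpi replicate 2 (0.56). At 1 hpi the change in R35A cells was larger than in WT cells by 0.61 ± 0.07 (adjusted p of 1.4e-09), a call lost without R35A 0 hpi replicate 1 (0.58), and at 18 hpi by 0.84 ± 0.07 (adjusted p of 1.5e-13). R35K exceeded WT by 1.15 ± 0.08 at 1 hpi and 1.41 ± 0.08 at 6 hpi.

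Ncf1, which encodes the organizer that carries the cytosolic complex to the membrane, had the lowest level of the 5 at the start. WT cells held 6.79 and 5.20 CPM at 0 hpi, 25.2 and 27.3 after 1 hr, 23.9 and 23.5 after 3 hr, 27.7 and 28.6 after 6 hr, 32.4 and 32.5 after 18 hr and 467 and 458 after 120 hr. R35A cells held 4.90 and 5.48, 49.8 and 47.5, 67.2 and 63.6, 55.5 and 53.8, 73.8 and 76.8 and 580.2 and 564 CPM, and R35K cells 4.93 and 5.61, 93.9 and 98.2, 83.1 and 86.5, 109 and 109, 113 and 109 and 526 and 516 CPM. The 3 constructs were apart from 1 to 18 hpi, in the order WT, R35A, R35K, and here both mutants stayed above WT at 120 hpi too. From 0 to 1 hpi the mean level rose 4.38-fold in WT and 9.38-fold in R35A cells (adjusted p of 7.5e-26 and 1.9e-36). In R35K cells it rose by 4.14 ± 0.07 on the log2 scale (adjusted p of 5.2e-32). The change in R35A cells exceeded the WT change by 1.04 ± 0.14 after 1 hr and 1.40 ± 0.14 after 18 hr, and at 120 hpi by 0.51 ± 0.14 (adjusted p of 0.0046), short of 1.5-fold. That last value passed the limit without WT 0 hpi replicate 2 (0.70) or R35A 0 hpi replicate 2 (0.60). Over the same times the overlapping Gtf2ird2 changed by -0.04 after 1 hr, 0.15 after 18 hr and 2.14 after 120 hr in WT cells on the log2 scale, and its level stayed below that of Ncf1 in each construct from 1 hpi on. At 0 hpi it lay above Ncf1 in each construct, at 8.43 and 8.76 CPM in WT cells, so that reads shared by the genes would weigh most on the starting level of Ncf1.

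Ncf4, which encodes the phosphoinositide-binding p40phox, gave the largest difference of the 5 genes between R35A and WT from 1 to 18 hpi. In WT cells it stood at 17.4 and 17.0 CPM at 0 hpi, 15.5 and 14.4 after 1 hr, 10.2 and 12.9 after 3 hr, 15.0 and 13.6 after 6 hr, 15.9 and 15.4 after 18 hr and 206 and 203 after 120 hr, so that it did not lie above its starting level in any WT library up to 18 hpi. In R35A cells it stood at 16.4 and 15.4, 40.8 and 39.1, 50.9 and 51.6, 42.5 and 49.0, 60.3 and 57.0 and 161 and 161 CPM at these times. In R35K cells the values were 16.5 and 18.7, 63.5 and 63.1, 60.7 and 61.4, 87.5 and 84.4, 84.6 and 85.6 and 159 and 153 CPM. The log2 change in WT cells was -0.18 ± 0.09 after 1 hr (adjusted p of 0.11), -0.57 ± 0.10 after 3 hr (adjusted p of 2.6e-06), just short of 1.5-fold, and -0.14 ± 0.09 after 18 hr (adjusted p of 0.18). The value at 3 hpi was called as a fall without WT 0 hpi replicate 2 (−0.59) or WT 3 hpi replicate 2 (−0.75). R35A exceeded WT in the change by 1.49 ± 0.12 after 1 hr, 2.23 ± 0.13 after 3 hr, 1.81 ± 0.12 after 6 hr and 2.01 ± 0.12 after 18 hr, with adjusted p between 1.1e-20 and 1.0e-14. R35K exceeded WT by 2.05 ± 0.12, 2.37 ± 0.12, 2.56 ± 0.12 and 2.41 ± 0.11 at the same times. At 18 hpi Ncf4 had reached 7.67% of its own 120 hpi level in WT cells, 36.5% in R35A cells and 54.5% in R35K cells. By 120 hpi both WT libraries were above all mutant ones, and the R35K change was then apart from the WT change by -0.42 ± 0.10, which stayed under 1.5-fold.

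Rac2, a Rac GTPase that can serve in the complex, went the other way. WT cells held 361 and 374 CPM at 0 hpi, 199 and 202 after 1 hr, 167 and 179 after 3 hr, 155 and 158 after 6 hr, 73.4 and 68.6 after 18 hr and 598 and 559 after 120 hr. R35A cells held 328 and 351, 99.8 and 101, 121 and 128, 111 and 114, 100.1 and 105 and 439 and 438 CPM, and R35K cells 343 and 358, 175 and 176, 159.9 and 159.9, 176 and 175, 141 and 134 and 472 and 446 CPM. In R35A cells the fall had its full size by 1 hpi, while WT cells went down in steps to a lower point at 18 hpi, below both mutants. The log2 change from 0 hpi was -0.85 ± 0.04 in WT, -1.78 ± 0.04 in R35A and -1.05 ± 0.04 in R35K cells at 1 hpi, and -2.38 ± 0.04, -1.75 ± 0.04 and -1.39 ± 0.04 at 18 hpi. The difference between R35A and WT in the change was -0.93 ± 0.06 at 1 hpi (adjusted p of 2.8e-19) and had the opposite sign at 18 hpi, 0.63 ± 0.06 (adjusted p of 3.3e-12). The call at 18 hpi was lost with DESeq2's size factors (0.57), with a DESeq2 Wald test (0.57) and without R35A 0 hpi replicate 1 (0.58). R35K differed from WT by -0.13 ± 0.06 at 1 hpi, within 1.5-fold, and by 1.03 ± 0.06 at 18 hpi. From 0 to 120 hpi the log2 change was 0.53 ± 0.04 in WT, 0.25 ± 0.04 in R35A and 0.29 ± 0.04 in R35K cells, none past 1.5-fold. In WT cells this change was called as a rise with DESeq2's size factors (0.68), a DESeq2 Wald test (0.68), the 2 groups fitted alone (0.76), the 36 libraries in a single fit (0.65), or without either replicate at 120 hpi (0.61 and 0.70).

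The steps of the course were then compared between neighbouring times. From 0 to 1 hpi the calls were those given above, 4 genes in WT and 5 in each mutant. From 1 to 3 hpi 0 of 5 genes was called in WT, R35A or R35K cells, against 1.04%, 0.553% and 0.347% of all genes, and from 3 to 6 hpi again 0 of 5, against 1.04%, 0.177% and 1.19%. From 6 to 18 hpi 1 gene was called, Rac2 in WT cells, which fell further, with a log2 change of -1.13 (SE 0.05), while 13.3% of all genes were called in WT, 4.28% in R35A and 5.4% in R35K cells. From 18 to 120 hpi all 5 genes rose in all 3 constructs, against 60.5% of all genes in WT, 53.9% in R35A and 53.3% in R35K cells. In that interval Cybb rose by 4.01 ± 0.04 in WT, 2.33 ± 0.04 in R35A and 1.87 ± 0.04 in R35K cells on the log2 scale, Ncf4 by 3.58 ± 0.07, 1.35 ± 0.05 and 0.82 ± 0.05, and Rac2 by 2.90 ± 0.04, 1.99 ± 0.04 and 1.68 ± 0.04. Steps that each fell short of the limit do not show that a level stayed the same, since Ncf1 in R35A cells stood at 9.38-fold its 0 hpi mean at 1 hpi and at 14.5-fold at 18 hpi. At 1 hpi Cybb had 5.54% of its own 120 hpi level in WT, 15.7% in R35A and 17.5% in R35K cells, Cyba 15.6%, 23.5% and 38.4%, and Ncf1 5.68%, 8.51% and 18.4%. B lineage markers summed to 1839 to 1847 CPM in WT, 556 to 563 in R35A and 1007 to 1018 in R35K cells at 1 hpi, and macrophage markers to 861 to 875, 3748 to 3765 and 8025 to 8166 CPM. Their part in the oxidase results was not tested.

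The constructs were compared in the change from 0 hpi, which asks whether the R35 mutants raise the oxidase genes faster than WT. All these comparisons share the 0 hpi libraries of each construct. Between R35A and WT, 5 of the 5 genes were called at 1 hpi, 4 after 3 hr, 4 after 6 hr, 5 after 18 hr and 0 after 120 hr, against 14%, 13%, 10.3%, 8.36% and 14.5% of all genes. Between R35K and WT, 4, 4, 4, 5 and 0 were called at these times, against 11.9%, 10%, 12.2%, 13.3% and 10.1% of all genes. The same question asked of the levels at each time, without the 0 hpi libraries, gave 5, 4, 4, 4 and 0 calls for R35A against WT at the 5 times after induction, with 19.3%, 17%, 13.7%, 10.1% and 18.8% of all genes called. For R35K against WT it gave 4, 4, 4, 5 and 0 calls, with 15.2%, 13%, 14.9%, 15.3% and 13.8% of all genes called. Each count of 0 given for the 5 genes here, between neighbouring times and at 0 hpi was also 0 at an unadjusted p under 0.05 with the same fold, and in a DESeq2 Wald test. The calls were towards higher values in the mutants except for Rac2 in R35A cells at 1 hpi, where the mutant was lower. At 120 hpi the direct log2 differences between R35A and WT ran from -0.39 for Rac2 to 0.32 for Ncf1, below 1.5-fold for all 5 genes, although 4 of these 5 had an adjusted p at or below 8.8e-08. The fibroblast markers without Fn1 at that time summed to 142 to 164 CPM in WT, 498 to 507 in R35A and 372 to 437 in R35K cells.

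**Figure D2:**
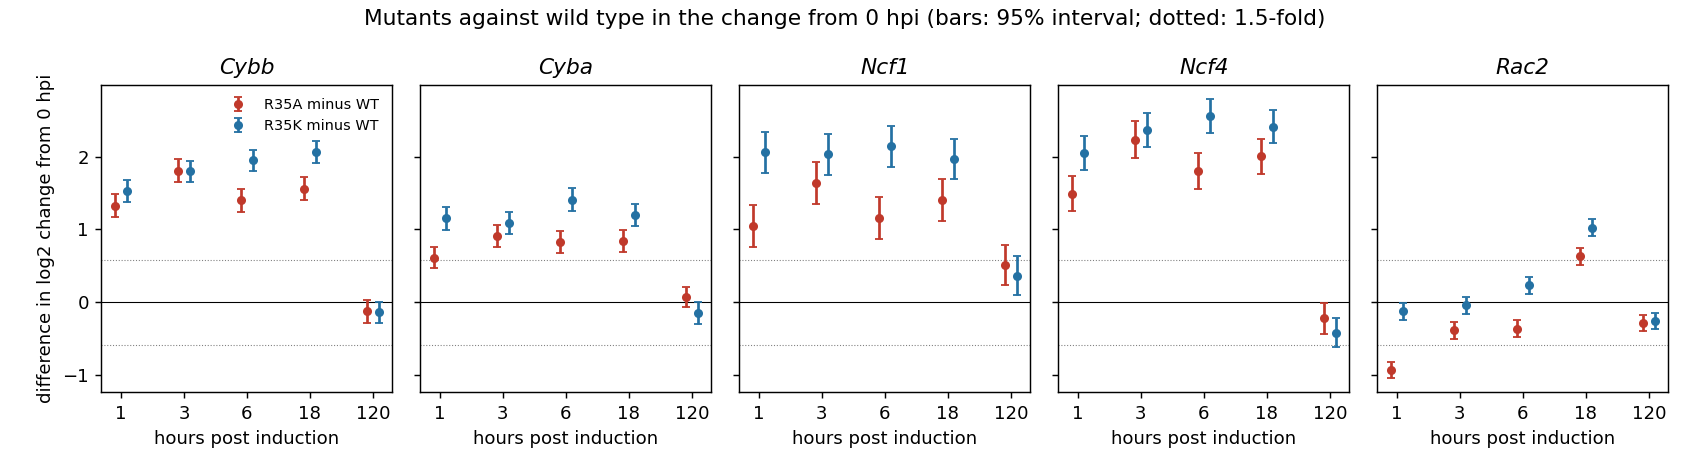
Difference between each mutant and WT in the log2 change from 0 hpi, for each of the 5 genes and each time. Points are edgeR estimates, bars their 95% intervals (2 libraries a group), and dotted lines mark 1.5-fold. Points of Cybb, Cyba, Ncf1 and Ncf4 lie above 0 from 1 to 18 hpi and between the dotted lines at 120 hpi, not all of them at 0. Rac2 changes sign for R35A between 6 and 18 hpi.

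The 2 mutants, which differ in the residue that replaces arginine 35, an alanine or a lysine that keeps the positive charge, were close but not the same. In the change from 0 hpi, R35K differed from R35A in 2 genes at 1 hpi, 0 after 3 hr, 3 after 6 hr, 0 after 18 hr and 0 after 120 hr, against 5.83%, 3.02%, 5.89%, 3.44% and 1.61% of all genes. At 1 hpi Ncf1 rose more in R35K cells by 0.97 ± 0.13 (adjusted p of 8.5e-08), and Rac2 fell less, by 0.76 ± 0.06 (adjusted p of 1.8e-15). At 6 hpi the differences were 0.98 ± 0.13 for Ncf1, 0.75 ± 0.10 for Ncf4 and 0.59 ± 0.06 for Rac2. The last was only just past 1.5-fold and was lost with DESeq2's size factors (0.53), a DESeq2 Wald test (0.53), no low-count filter (0.55), the compared groups alone (0.54) and without R35A 0 hpi replicate 2 (0.55), R35A 6 hpi replicate 1 (0.58) or R35K 0 hpi replicate 1 (0.56). Cybb did not pass at any time, with intervals of 0.01 to 0.30 after 1 hr, -0.18 to 0.10 after 3 hr and -0.15 to 0.13 after 120 hr, and of 0.41 to 0.69 after 6 hr and 0.35 to 0.64 after 18 hr, which both lie above 0. With 2 replicates and a separate table for R35K, these differences are those between the libraries at hand.

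To compare the genes with each other, CPM were divided by the exon length in kb (5808 bases for Cybb, 1039 for Cyba, 3663 for Ncf1, 2020 for Ncf4 and 3103 for Rac2). This length is the union of all annotated exons of a gene, which can exceed the length of the transcripts present. The orders and ratios between genes below depend on it, and other lengths were not tried. Before induction the order of the levels was Rac2, Cyba, Ncf4, Cybb and Ncf1 in all 3 constructs, and in WT cells these stood at 119, 56.3, 8.51, 2.94 and 1.64 CPM per kb. The replicates of neighbouring genes in this order did not overlap. Uninduced cells thus held far more RNA of the partner than of the catalytic subunit per length, with a ratio of Cyba to Cybb of 19.2 in WT, 20.9 in R35A and 18.3 in R35K cells. At 1 hpi Cyba was first in each construct, and the ratio of Cyba to Cybb was 3.12 in WT, 2.10 in R35A and 2.30 in R35K cells. Cybb came second in both mutants at that time, at 68.6 and 87.2 CPM per kb, and in WT stood behind Rac2 as well, at 29.5 CPM per kb. At 120 hpi WT cells held 590.4 CPM per kb of Cyba, 532 of Cybb, 186 of Rac2, 126 of Ncf1 and 101 of Ncf4. The ratio of Cyba to Cybb was then 1.11 in WT, 1.40 in R35A and 1.05 in R35K cells, and in R35K cells the replicates of these 2 genes overlapped. In R35A cells alone Ncf1 (156 CPM per kb) lay above Rac2 (141) at 120 hpi. The spread between the highest and the lowest gene narrowed from 72.4-fold at 0 hpi to 5.84-fold at 120 hpi in WT, from 77.3-fold to 7.70-fold in R35A and from 78.5-fold to 6.76-fold in R35K cells. Of the other neighbours in the order, only Ncf4 and Ncf1 in WT cells at 1 hpi had overlapping replicates.

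**Figure D3:**
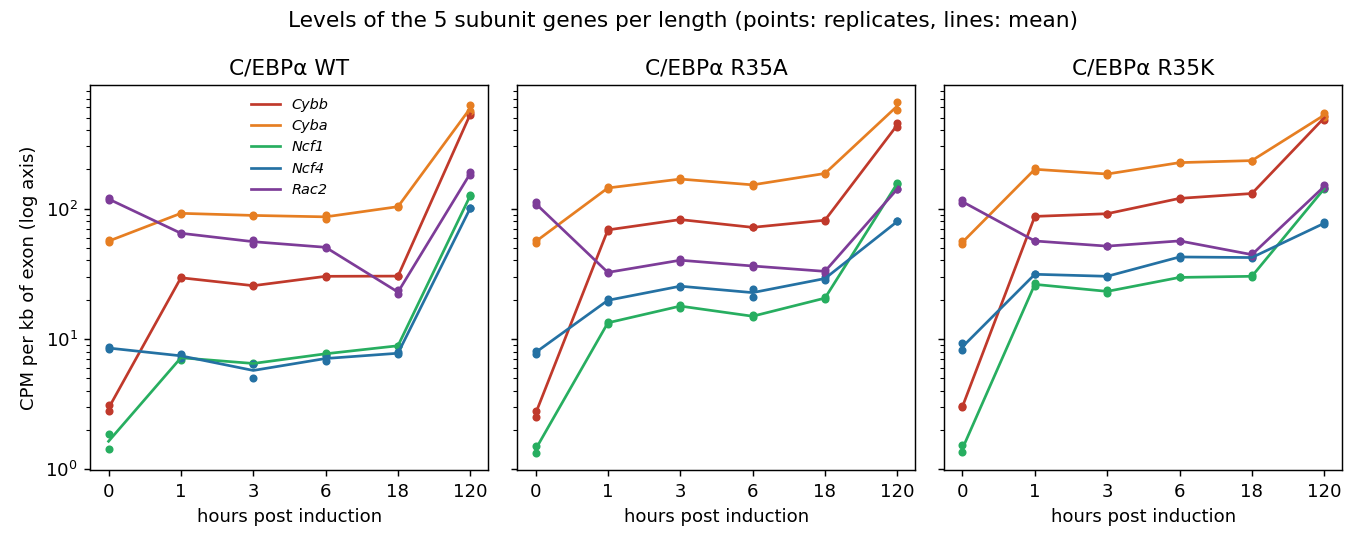
Levels of the 5 genes in CPM per kb of exon on a log axis against hours post induction, 1 panel a construct. Points are the 2 replicates and lines their means. Rac2 is highest at 0 hpi and Cyba from 1 hpi on, and Cybb nears Cyba at 120 hpi.

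A list that joins other oxidase subunits with homologues held, like all genes, more lower than higher genes late in WT cells. The lower genes named below are homologues, so the counts do not show a fall of the other subunits. Of 13 listed genes, 8 passed the low-count filter, and at 120 hpi in WT cells 2 of the 8 were higher and 5 lower. In R35A cells 1 was higher and 3 lower, and in R35K cells 1 and 4, against 63.1% and 63.8% of all genes called. In WT cells the values were as follows. Of all genes, 63.3% were called there, 3925 higher and 6832 lower. The median log2 change of the list was −0.79 beside −0.36 over all genes. Nox4, a catalytic homologue of fibroblasts and other tissues, stood at 6.79 and 6.55 CPM at 0 hpi, 12.5 and 10.7 after 18 hr and 0 and 0.0956 after 120 hr in WT cells, and was called lower at 120 hpi, the time at which the fibroblast markers were also lowest. Nox1 and Duox1, catalytic homologues of epithelia, stood at 0.549 and 0.641 CPM (Nox1) and 1.37 and 0.783 CPM (Duox1) at 0 hpi in WT cells and were called lower at 120 hpi, from a few counts. The call was lost for Nox1 without WT 120 hpi replicate 2, and for Duox1 without that replicate or without WT 0 hpi replicate 1.

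Genes that act on the oxidase rather than in it were split early and mostly higher late. The list of oxidase activation and assembly holds 25 genes, among them exchange factors for Rac, protein kinase C forms that phosphorylate p47phox, and receptors that trigger the burst, and all 25 were tested. In WT cells 5 were higher and 5 lower at 1 hpi, 7 and 13 after 18 hr, and 19 and 5 after 120 hr, with medians of −0.05, −0.66 and 1.18 beside −0.01, 0.02 and −0.36 over all genes on the log2 scale. Of all genes, 19.9%, 47.1% and 63.3% were called at these times. In the change at 18 hpi, 13 of the 25 were higher in R35A than in WT cells and 0 lower, and 16 were higher and 1 lower in R35K than in WT cells, against 8.36% and 13.3% of all genes called in either direction. Itgam, the integrin chain CD11b through which opsonized particles trigger the oxidase, stood at 1.92 and 1.92 CPM at 0 hpi, 19.6 and 19.9 after 1 hr and 495 and 493 after 120 hr in WT cells, and at 53.0 and 53.9 CPM in R35A and 93.9 and 90.6 CPM in R35K cells at 1 hpi. Fcgr1, an IgG receptor, went from 0.137 and 0.214 CPM at 0 hpi to 2.76 and 2.69 after 1 hr and 435 and 418 after 120 hr in WT cells. Fpr2, a receptor for formyl peptides, was at 0.460 and 0.172 CPM in WT, 8.59 and 8.03 in R35A and 8.78 and 9.43 in R35K cells at 1 hpi, and its change was larger in both mutants (adjusted p of 3.7e-04 and 1.0e-04), from 3 or fewer counts in each library at 0 hpi. The related receptor gene Fpr1 was called at 120 hpi, at 25.6 and 25.4 CPM in WT, 174 and 193 in R35A and 155 and 142 in R35K cells, a difference in the change of 2.96 ± 0.61 and 3.38 ± 0.68 (adjusted p of 9.7e-05 and 7.8e-05).

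The 12 genes of NADPH supply, the fuel of the oxidase, were called in WT cells at a share near that of all genes at 1 hpi (19.9%) and 120 hpi (63.3%). The share was above that of all genes in WT cells from 3 to 18 hpi and in both mutants from 1 to 18 hpi. In WT cells 3 were higher and 2 lower at both 3 and 6 hpi, against 23.5% and 29.8% of all genes. At 18 hpi 4 were higher and 6 lower, against 47.1%. From 1 to 18 hpi 4 were higher at each time in R35A cells, and 5, 5, 6 and 6 lower. All genes gave 37.3%, 36.8%, 37.7% and 42.6% there. In R35K cells 4 were higher at each of these times and 3, 3, 4 and 5 lower, against 32.9%, 32.7%, 34.1% and 39% of all genes. In WT cells 1 was higher and 1 lower at 1 hpi, and 5 were higher and 4 lower at 120 hpi, with medians of 0.09 and 0.07 beside −0.01 and −0.36 over all genes. G6pdx, the entry enzyme of the pentose phosphate pathway and a main source of NADPH, stood at 57.6 and 65.1 CPM at 0 hpi, 112 and 109 after 1 hr and 297 and 292 after 120 hr in WT cells, a log2 change of 2.14 ± 0.04 by 120 hpi. Idh1, the cytosolic isocitrate dehydrogenase that makes NADPH, changed by 2.81 ± 0.05 by 120 hpi, while Me1, the cytosolic malic enzyme, changed by -3.41 ± 0.12 and Rpia, an enzyme of the later pentose phosphate pathway, by -1.29 ± 0.06. Me1 went from 33.9 and 33.2 CPM at 0 hpi to 69.7 and 69.4 after 18 hr and 3.45 and 3.44 after 120 hr, and the fibroblast markers were highest and lowest at these same 2 later times. For Rpia, R35A cells were further down than WT cells at 1 hpi, with a difference in the change of -1.47 ± 0.08 (adjusted p of 4.8e-21).

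Of the 20 genes that remove superoxide and peroxide, 7 were higher and 0 lower at 1 hpi in WT cells, and 6 were higher and 6 lower at 120 hpi, with medians of 0.41 and −0.02 beside −0.01 and −0.36 over all genes. Of all genes, 19.9% and 63.3% were called at these times, so the count at 120 hpi is close to the background. Prdx5, a peroxiredoxin, rose by 2.29 ± 0.04 on the log2 scale from 0 to 120 hpi. Over the same interval Nqo1, a quinone reductase, changed by -4.71 ± 0.11, Gclc, the catalytic subunit of the first enzyme of glutathione synthesis, by -2.55 ± 0.04, and Txnrd1, a thioredoxin reductase, by -2.04 ± 0.03. These last 3 genes, which the NRF2 factor is known to raise, stood higher at 18 than at 0 hpi in WT cells before they fell. Nqo1 stood at 51.6 and 52.1 CPM at 0 hpi, 112 and 114 after 18 hr and 2.21 and 2.10 after 120 hr, again in the order of the fibroblast markers, whose part was not tested.

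Of 18 listed factors known to act on oxidase genes, 17 were tested, and in WT cells 5 were higher and 1 lower at 1 hpi and 7 higher and 6 lower at 120 hpi. Of all genes, 19.9% and 63.3% were called at these times. The medians were 0.10 and 0.34 beside −0.01 and −0.36 over all genes. Spi1 (PU.1) rose early and again late, with 32.8 and 33.2 CPM at 0 hpi, 75.9 and 72.0 after 1 hr, 43.1 and 43.5 after 18 hr and 415 and 389.9 after 120 hr in WT cells. In R35A cells Spi1 stood at 31.1 and 31.8, 94.3 and 95.6, 111 and 116 and 405 and 369 CPM, and in R35K cells at 30.3 and 31.8, 158 and 151, 183 and 182 and 365 and 326 CPM at the same times. Its change in R35A cells exceeded that in WT cells by 0.38 ± 0.08 at 1 hpi, under 1.5-fold, and by 1.44 ± 0.08 at 18 hpi (adjusted p of 7.3e-20). Cebpb, which encodes a family member of C/EBPα, rose by 3.06 ± 0.08 from 0 to 120 hpi in WT cells and less in R35A cells, with a difference of -0.66 ± 0.13 (adjusted p of 4.4e-05). Hoxa9 and Hoxa10, homeobox factors that act on Cybb in myeloid progenitors, changed by -3.52 ± 0.24 and -3.15 ± 0.22 from 0 to 120 hpi in WT cells, down to 0.707 and 1.05 CPM for Hoxa9 and 1.06 and 0.956 CPM for Hoxa10.

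**Figure D4:**
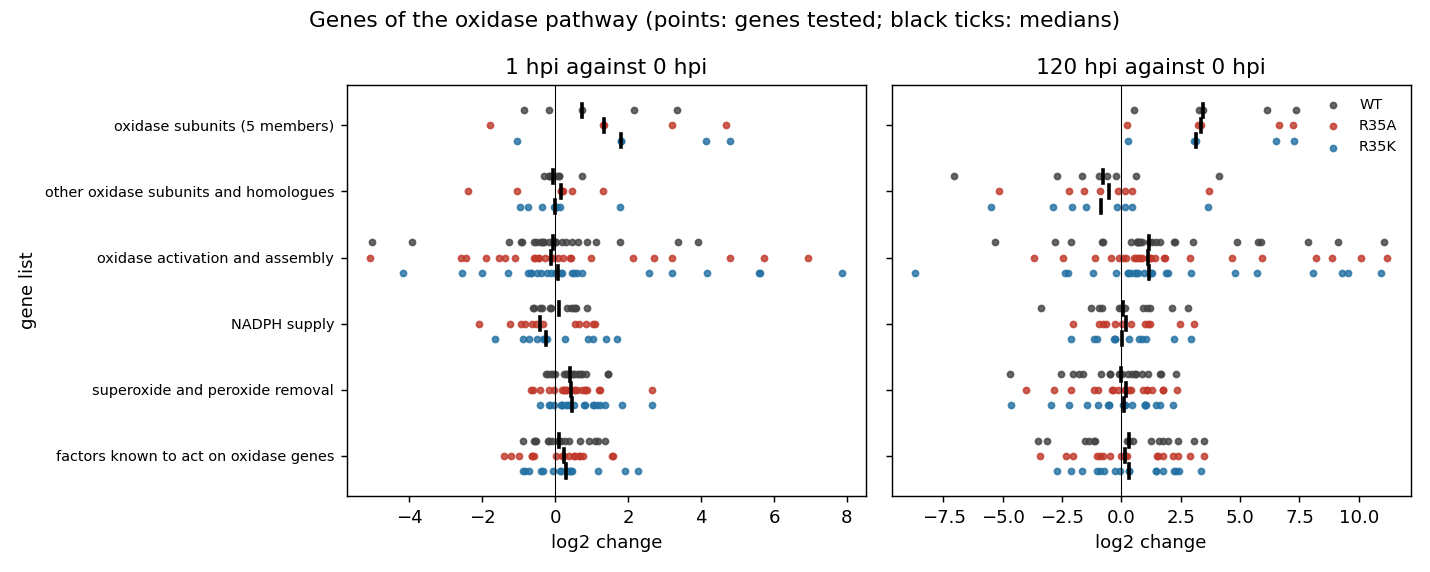
Log2 change from 0 hpi at 1 hpi (left) and 120 hpi (right) for the 5 subunit genes and for the genes of 5 pathway lists, in WT, R35A and R35K cells. Points are genes that passed the low-count filter and black ticks are medians of a list. The subunits lie to the right of 0 except Rac2 at 1 hpi and Ncf4 at 1 hpi in WT cells, and the pathway lists spread to both sides.

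Over the 18 group means of the log2 CPM, Cybb, Cyba and Ncf1 ran closely together, with Pearson correlations of 0.954 for Cybb with Cyba, 0.986 for Cybb with Ncf1 and 0.986 for Cyba with Ncf1. Ncf4 correlated at 0.856 with Cybb and 0.947 with Cyba. Rac2 stood apart, at 0.022 with Cybb, 0.260 with Cyba, 0.148 with Ncf1 and 0.303 with Ncf4. These are descriptions over 18 groups that share the time course and, within a construct, the culture. Among 7431 genes whose group means span at least 2 on the log2 scale, the 3 most like Cybb were Lilrb4 (0.998), Nfam1 (0.998) and Lilr4b (0.997), which encode myeloid receptors and an adaptor of immune cells. Cyba was most like Psap (0.998), which encodes the precursor of the lysosomal saposins, Apobr (0.998) and Ebi3 (0.996). Ncf1 was most like G6pdx (0.996), Hk3 (0.996), a hexokinase of blood cells, and Ctsz (0.995), a lysosomal cathepsin. Ncf4 was most like Lpxn (0.991), Adam17 (0.990) and Tlr1 (0.987), and Rac2 most like Ptpn7 (0.993), Rassf5 (0.992) and Fancg (0.990).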

How the data were processed

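RNA-seq libraries were made from polyadenylated RNA with a stranded kit and sequenced as single-end 50 bp reads. Per the labels and the study's methods, the authors used FastQC for read quality and STAR 2.5.0a both for alignment to mm10 and for counting reads per gene, and normalized with DESeq2 1.14.1. The annotation release and the strand of the counts are not given in the sources used here. The deposited count tables hold raw counts of 40354 genes. The deposited log2 tables hold, for 19067 genes, log2 values that equal the log2 of the count over a size factor plus 1 (100% of values recovered). They served for this check, for membership and to recompute the percentages of the 120 hpi level. With them Ncf4 at 18 hpi stood at 8.28% of its 120 hpi level in WT, 38.2% in R35A and 55.5% in R35K cells. WT and R35A share tables, R35K has its own.

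Counts were analysed with edgeR 4.0.16 in R 4.3.3 (filterByExpr, TMM, quasi-likelihood F test, Benjamini-Hochberg adjustment). WT and R35A were fitted together (24 libraries, 16988 genes), R35K changes alone (12 libraries, 16434 genes) and comparisons of R35K with other constructs over 36 libraries (17277 genes). Levels are CPM with TMM factors over the 36 libraries. Exon lengths and coordinates come from GENCODE vM21 on mm10, where 97.07% of the symbols were found. The results were recomputed with Wald tests in DESeq2 1.42.0, with its size factors in edgeR, without the low-count filter (all genes with a count), with unadjusted p, a 2-fold threshold, the compared groups alone or a replicate block, and without each library in turn. The fits were tested on simulated data.

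The 5 members and the gene lists were chosen with earlier results of these data known. All members are named in each comparison. Of each list, up to 4 genes with the largest called WT change from 0 to 120 hpi are named, except 1 gene that is not reported here, and of the genes most like a member, the first 3. Replicate numbers were treated as unpaired: over 153 pairs of groups the replicate differences of 9413 genes correlated with a median of −0.005, and 19 pairs exceeded 0.1. The squared replicate difference was 1.09 to 2.33 times that of counting noise, with a median of 1.30 over the groups. It was highest at 120 hpi, at 1.86 in WT, 2.18 in R35A and 2.33 in R35K cells. The replicates of most groups thus differed little beyond counting. The p-values and SE measure this spread, which may not hold that between separate cell preparations. Each library was counted as its own sample.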

Additional observations from a re-analysis of the deposited data

Results flagged for a closer look

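The change from 0 hpi differed between constructs, by the interaction test, in several of the 5 oxidase subunit genes. Between R35A and WT, 5 genes were called at 1 hpi, 4 genes by 3 hpi, 4 genes by 6 hpi and 5 genes by 18 hpi. Of all genes, 14%, 13%, 10.3% and 8.36% were called at these times. Between R35K and WT the numbers were 4, 4, 4 and 5 genes, against 11.9%, 10%, 12.2% and 13.3% of all genes. Between R35K and R35A, 2 genes were called at 1 hpi (Ncf1 and Rac2) and 3 genes at 6 hpi (Ncf1, Ncf4 and Rac2), against 5.83% and 5.89% of all genes. At 120 hpi 0 of the 5 genes were called between any 2 constructs in edgeR, and 0 at an unadjusted p under 0.05 with the same fold or in a DESeq2 Wald test. A gene that was not called can still differ by less than 1.5-fold, as Ncf1 did between R35A and WT at 120 hpi, with the adjusted p given above.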

How the results depend on the processing

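Of 3590 values of the 5 genes under the alternatives, 57 changed their side of the threshold and 0 reversed a call. A further 28 changed sign among values called in neither fit. In all totals here, the change from 0 to 1 hpi is counted both as a change from 0 hpi and as a change between neighbouring times. Over 285 comparisons of a gene, of which 172 were called, the 2-fold threshold lost 26 calls, so that R35A against WT at each time gave 11 calls in place of 17 of 30, and R35K against R35A in the change from 0 hpi 0 in place of 5 of 25. DESeq2 Wald tests changed 3 of 285, DESeq2 size factors in edgeR 3, the compared groups alone 2, the 36 libraries in a single fit 1 of 155, no low-count filter 1 and unadjusted p 0. Leaving out 1 library changed 21 of 1440. The calls then numbered 19 to 21 for the WT change from 0 hpi (20 with all libraries), 16 to 19 for R35A against WT in the change (18) and 4 to 8 for R35K against R35A (5), where the 8 came without R35K 0 hpi replicate 2. A replicate block changed 0 of 285 calls, and WT changes from 0 hpi then gave the same 20 calls. The replicate numbers showed no common pairing, with a median correlation between groups of −0.005, but single correlations ran from −0.54 to 0.34. Some pairs of groups thus shared replicate differences, in either direction, which a block on the replicate number does not cover. Their source was not tested.

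Over all genes, the 2-fold threshold called fewer genes by 1.27 to 4.07 times, over 1.5 times in 46 of 52 comparisons. Between 1 and 3 or 3 and 6 hpi, where 30 to 195 genes were called in a construct, DESeq2 called 6 to 111 and an unadjusted p 282 to 467. There, 176 calls for WT from 3 to 6 hpi became 106 without WT 6 hpi replicate 1, 94 for R35A from 1 to 3 hpi became 54 without R35A 3 hpi replicate 2, 30 for R35A from 3 to 6 hpi became 10 without that library and 15 or 11 without R35A 6 hpi replicate 1 or 2, and 57 for R35K from 1 to 3 hpi became 35 or 28 without R35K 1 hpi replicate 1 or R35K 3 hpi replicate 2. R35K against R35A gave 521, 595 and 278 at 3, 18 and 120 hpi, but 953, 1052 and 787 at an unadjusted p, 328 and 172 at 3 and 120 hpi with DESeq2, and 185 at 120 hpi without R35K 120 hpi replicate 2. At 0 hpi the 0 calls for R35A and R35K against WT became 261 and 220 at an unadjusted p, 16 and 9 without the filter, 5 and 6 in the compared groups alone, and 11 for R35A without R35A 0 hpi replicate 2. DESeq2 size factors moved the median of all genes by 0.116 for WT at 18 hpi and by −0.106 for R35K against WT at 18 hpi, besides the shifts at 120 hpi given above. Apart from counting by construction, the cause of these changes was not tested. Precision was lowest for Ncf1, with 73 to 103 counts a library at 0 hpi, whose differences between constructs in the change had SE of 0.13 to 0.15 against 0.05 to 0.06 for Rac2.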
